A study of Mus musculus with 4 samples.

Results

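The 9 genes described here store, carry, make and respond to retinoids, and were measured in cultured mouse pancreatic fibroblasts. They were chosen by symbol: Lrat, Rbp4, Stra6, Crabp1, Crabp2, Aldh1a1, Aldh1a2, Aldh1a3 and Rarb, each of which had 1 row among the 38921 gene intervals of the deposited tables. RNA came from 2 libraries of KPC fibroblasts and 2 libraries of wild type (WT) fibroblasts, all of mixed strain, isolated from the pancreas by a gravity separation protocol and grown in serum-containing medium. As background, KPC mice are a pancreatic cancer model in which Cre is commonly driven by Pdx1 in the epithelial lineage of the pancreas. The sample titles call each library a biological replicate. The labels give the name KPC without alleles or ages and do not tie a library to an animal or culture. A p-value here therefore reflects only how far these libraries lie apart, and whether they came from separate animals is not stated. The comparison was read here as a readout of stellate cell quiescence.

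Retinol, the alcohol form of vitamin A, travels in blood bound to the carrier RBP4 and can enter cells through the receptor STRA6. In quiescent pancreatic stellate cells the acyltransferase LRAT esterifies it, and the esters are kept in lipid droplets that are lost when the cells turn into matrix-producing myofibroblasts. Retinol can instead be oxidised to retinaldehyde and then, by the retinaldehyde dehydrogenases ALDH1A1, ALDH1A2 and ALDH1A3, to retinoic acid, which the binding proteins CRABP1 and CRABP2 hold in the cytosol and which acts in the nucleus through retinoic acid receptors such as RARB.

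Retinoic acid receptors bind paired copies of a short motif. The promoter window of Rarb, itself a target of retinoic acid, is shown because it holds such a pair, and the window of Cyp26a1, which encodes the enzyme that clears retinoic acid, is shown beside it as the other textbook target. Both come from RefSeq on build GRCm38.p6 and run from 250 bases before to 50 bases after the annotated start, on the strand of the gene: chr14:16575427-16575726 on the minus strand for Rarb and chr19:37697558-37697857 on the plus strand for Cyp26a1. Capitals mark the pair of motifs.
Rarb: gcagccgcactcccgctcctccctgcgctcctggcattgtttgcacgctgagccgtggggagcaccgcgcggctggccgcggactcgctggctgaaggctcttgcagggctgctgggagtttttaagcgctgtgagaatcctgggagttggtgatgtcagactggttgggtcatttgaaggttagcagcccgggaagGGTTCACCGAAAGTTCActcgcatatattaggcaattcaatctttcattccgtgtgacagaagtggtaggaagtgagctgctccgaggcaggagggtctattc
Cyp26a1: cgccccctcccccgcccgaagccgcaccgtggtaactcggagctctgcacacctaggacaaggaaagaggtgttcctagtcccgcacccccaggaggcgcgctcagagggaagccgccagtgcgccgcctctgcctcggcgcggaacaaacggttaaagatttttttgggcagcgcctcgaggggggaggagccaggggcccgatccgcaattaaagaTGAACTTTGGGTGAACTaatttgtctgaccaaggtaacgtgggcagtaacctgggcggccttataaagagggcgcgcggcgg
The motif was searched as AGGTCA or as AGTTCA, and also as GGGTCA or as GGTTCA, in 2 copies of the same direction with 5 bases between them, on either strand. The pair begins 53 bases before the start in Rarb and, on the opposite strand, 32 bases before it in Cyp26a1. Of 32851 RefSeq promoter windows of this length, 32 held such a pair (0.0974%), while 43.7% held at least 1 single motif. Windows were at hand for 7 of the 9 genes, not for Crabp2 or Aldh1a3, and apart from Rarb none of those windows, nor those of Dhrs3 and Cyp26b1, held a pair with 1, 2 or 5 bases between the copies. A match describes letters in a window and shows no binding.

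Counts summed over all rows came to 57926327 and 68312367 in the KPC libraries and 53232634 and 22302141 in the WT libraries, so WT replicate 2 was the shallowest. Levels are given as CPM, the count scaled to library size with trimmed-mean factors. The defining fibroblast gene Col1a1 stood at 4802 and 5245 CPM in KPC and 4088 and 4716 CPM in WT, and Col1a2 at 2550 and 2860 CPM in KPC and 2880 and 2313 CPM in WT. None of the 11 fibroblast markers was at 0 in any library. This also held for the macrophage, endothelial and mesothelial markers described below, so it does not set fibroblasts apart.

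Of the 9 genes, 8 passed the filter on low counts and Lrat did not. edgeR's quasi-likelihood test with Benjamini-Hochberg adjustment over 23046 rows called 0 of the 8 at an adjusted p of 0.05, as it called 0% of all rows in either direction. At an unadjusted p under 0.05 there were 1 member higher in KPC (Stra6) and 1 lower (Aldh1a1), where 4.73% of all rows were higher and 3.94% lower; limma voom called 0 of the 8. DESeq2 called 1 member, Stra6, where it called 1.44% of all rows higher and 1.28% lower. Without WT replicate 2, edgeR called 3 members higher (Stra6, Aldh1a2 and Aldh1a3) and 1 lower (Aldh1a1), where it called 1.79% of all rows higher and 1.69% lower. Without WT replicate 1 it called 0 members, where it called 0% of all rows higher and 0.0209% lower. With 1 WT library left, that library is assumed to vary like the KPC libraries, so these calls hold no measure of WT spread. Rbp4, Stra6, Crabp2 and Aldh1a2 were above both WT libraries in both KPC libraries, which held for 20.6% of all tested rows. Aldh1a1 and Rarb were below both WT libraries in both KPC libraries, as were 20.5% of all tested rows. The median log2 fold change was 0.79 over the 8 tested genes and -0.01 over all tested rows. WT replicate 1 was the lowest or the highest of the 4 libraries in 8 of the 8 genes, against 59.8% of all rows, and the lowest in 6 of them, against 28.9%. Over all tested rows, log2 CPM of the 2 WT libraries correlated at 0.949 and that of the 2 KPC libraries at 0.978. WT replicate 2 correlated more closely with KPC replicates 1 and 2, at 0.958 and 0.969, than with WT replicate 1.

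**Figure D1:**
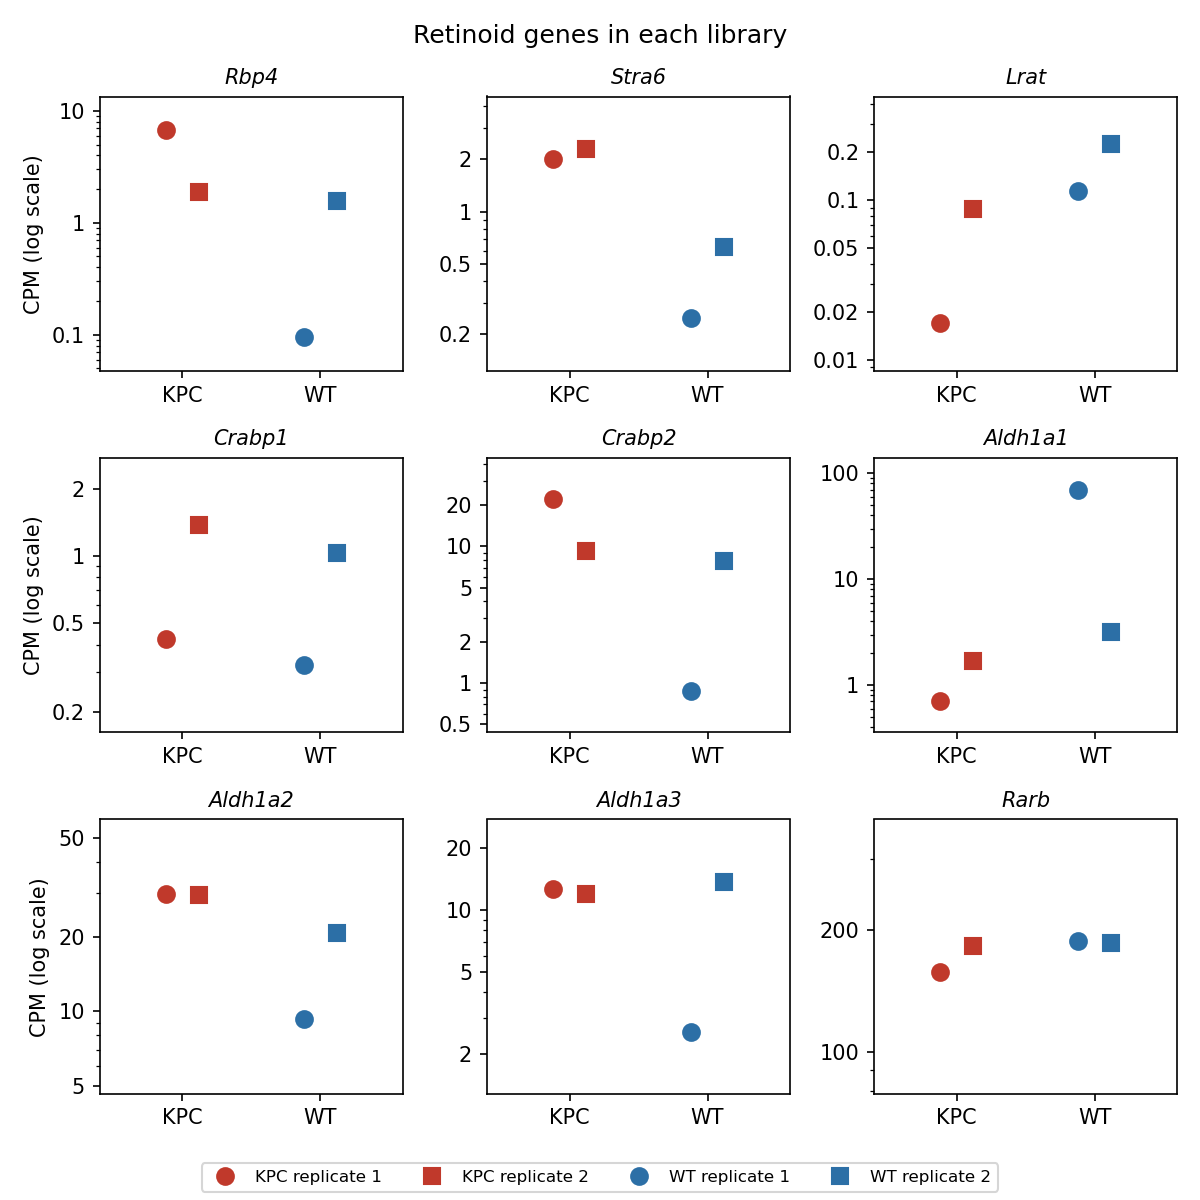
CPM after trimmed-mean scaling on a log axis for the 9 retinoid genes, with KPC libraries on the left, WT libraries on the right, circles for replicate 1 and squares for replicate 2. Each axis has its own range. Stra6 and Aldh1a2 have close KPC libraries above both WT libraries, while for Rbp4, Crabp2 and Aldh1a3 the WT 2 square lies near a KPC point and the WT 1 circle far below.

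Lrat, the gene of the storage enzyme (chromosome 3, 82892580 to 82903973, minus strand, mm10), was close to undetected in all 4 libraries. It had 1 and 6 counts in the KPC libraries and 6 and 5 counts in the WT libraries. As levels these are 0.017 and 0.0885 CPM in KPC and 0.114 and 0.224 CPM in WT. The exact 95% Poisson intervals, which cover counting error only, ran from 0.00043 to 0.0947 CPM in KPC replicate 1 and from 0.0325 to 0.193 CPM in KPC replicate 2, against 0.0419 to 0.248 CPM in WT replicate 1 and 0.0726 to 0.522 CPM in WT replicate 2. All 4 intervals overlap, though both KPC levels lay below both WT levels, as in 20.5% of all tested rows. Without the count filter the log2 fold change was -1.51 (edgeR adjusted p = 0.788), so no difference was called at this depth. The interval of Lrat also lies wholly inside the antisense gene annotated as Rbm46os in GENCODE M21, and without strand the few reads cannot be assigned to one or the other.

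Rbp4, the gene of the retinol carrier (chromosome 19, 38116621 to 38125321, minus strand), stood at 6.71 and 1.90 CPM in KPC and 0.0951 and 1.57 CPM in WT. KPC replicate 1 was high, WT replicate 1 rested on 5 counts, and the remaining libraries were close: their Poisson intervals, 1.59 to 2.26 CPM in KPC replicate 2 and 1.09 to 2.18 CPM in WT replicate 2, overlap. The means were 4.31 ± 3.40 CPM in KPC and 0.830 ± 1.04 CPM in WT (SD, n = 2 each), and the log2 fold change was 2.50 ± 1.31 (SE; edgeR adjusted p = 0.644). It was 5.50 without WT replicate 2 and 1.46 without WT replicate 1.

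Stra6, the gene of the retinol uptake receptor (chromosome 9, 58063789 to 58153996, plus strand), separated the groups most evenly. It stood at 2.01 and 2.27 CPM in KPC and 0.247 and 0.626 CPM in WT, from 118 and 154 counts in KPC and 13 and 14 counts in WT. The KPC libraries lay close together and every KPC Poisson interval (lowest bound 1.66 CPM) was above every WT interval (highest bound 1.05 CPM). Its log2 fold change was 2.38 ± 0.52 (SE), with an edgeR p of 0.00653 that did not pass after adjustment (adjusted p = 0.383), while DESeq2 gave an adjusted p of 0.0199. Leaving out 1 library at a time gave log2 fold changes from 1.77 (without WT replicate 1) to 3.11 (without WT replicate 2). Reads covered 2393 and 2553 bases of the interval in KPC and 441 and 421 bases in WT. The interval overlaps 55035 bases of Ccdc33 on the other strand, whose own row held 15 and 17 counts in KPC and 14 and 8 in WT; the WT counts of Stra6 are of that size.

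Crabp2, which encodes the binding protein that carries retinoic acid to its nuclear receptors, stood at 22.1 and 9.29 CPM in KPC and 0.875 and 7.87 CPM in WT (chromosome 3, 87948667 to 87953376, plus strand). The groups did not overlap, but KPC replicate 2 and WT replicate 2 were close, with Poisson intervals of 8.58 to 10.0 CPM and 6.75 to 9.12 CPM. The means were 15.7 ± 9.07 CPM in KPC and 4.37 ± 4.95 CPM in WT (SD, n = 2 each), a log2 fold change of 1.88 ± 1.06 (SE; edgeR adjusted p = 0.666). It was 4.17 without WT replicate 2 and 1.00 without WT replicate 1. Its paralogue Crabp1, whose product binds retinoic acid in the cytosol (chromosome 9, 54764749 to 54773110, plus strand), stood at 0.425 and 1.37 CPM in KPC and 0.323 and 1.03 CPM in WT. In both groups replicate 2 was above replicate 1, and the groups overlapped. The log2 fold change of Crabp1 was 0.50 ± 0.82 (SE; edgeR adjusted p = 0.908), and it turned to -0.61 without KPC replicate 2 and to -0.19 without WT replicate 1. Per kilobase of annotated exon, Crabp2 made up 96.9% and 80.4% of the summed CRABP level in KPC and 62.1% and 82.3% in WT.

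**Figure D2:**
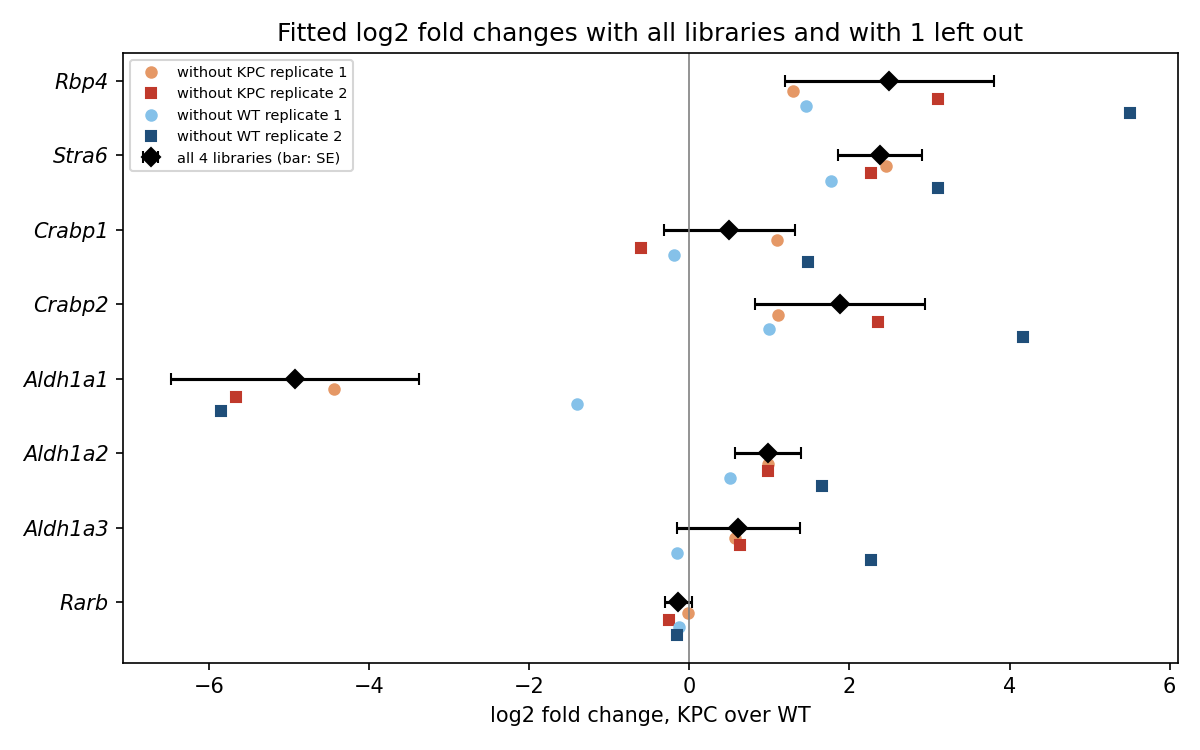
Fitted log2 fold changes of KPC over WT for the 8 tested genes, with black diamonds for all 4 libraries, bars for the standard error and coloured points for the fit without 1 library. Within a gene, the point without WT replicate 2 lies farthest to the right for Rbp4 (5.50), Crabp2 (4.17) and Stra6 (3.11). The same holds for Aldh1a3 (2.27), Aldh1a2 (1.66) and Crabp1 (1.48). The Aldh1a1 point moves from -4.93 with all libraries to -1.41 without WT replicate 1.

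The 3 retinaldehyde dehydrogenase genes behaved differently from each other. Aldh1a2, the enzyme of embryonic mesoderm and of mesothelium (chromosome 9, 71215790 to 71296243, plus strand), stood at 29.6 and 29.3 CPM in KPC and 9.30 and 20.7 CPM in WT. Both KPC libraries were above both WT libraries, with Poisson intervals that did not overlap (lowest KPC bound 28.0 CPM, highest WT bound 22.6 CPM). The log2 fold change was 0.98 ± 0.41 (SE, edgeR adjusted p = 0.594), 1.66 without WT replicate 2 and 0.51 without WT replicate 1.

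Aldh1a3, the isoenzyme best known from the developing eye and nose (chromosome 7, 66390893 to 66427517, minus strand), stood at 12.7 and 12 CPM in KPC and 2.57 and 13.8 CPM in WT. WT replicate 2 was the highest of the 4 and WT replicate 1 the lowest, so the groups overlapped. The log2 fold change of 0.61 ± 0.77 (SE, edgeR adjusted p = 0.868) was 2.27 without WT replicate 2 and -0.16 without WT replicate 1.

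Aldh1a1 (chromosome 19, 20601962 to 20643462, plus strand), the widely expressed isoenzyme of adult tissues, stood at 0.714 and 1.67 CPM in KPC and 69.6 and 3.18 CPM in WT. The counts were 42 and 113 in KPC and 3660 and 71 in WT, so WT replicate 1 stood far above the rest. The log2 fold change was -4.93 ± 1.55 (SE; edgeR adjusted p = 0.537). Without WT replicate 1 it was -1.41, and without WT replicate 2 it was -5.86.

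Per kilobase of annotated exon the makeup of the family can be compared within a library. Aldh1a2 held 80.9% and 79.1% of the summed ALDH1A level in KPC and 10.6% and 66.8% in WT. Aldh1a1 held 2.15% and 4.97% in KPC and 87.9% and 11.3% in WT, and Aldh1a3 17.0% and 15.9% in KPC and 1.44% and 21.9% in WT. The summed level was 16.2 and 16.3 CPM per kilobase in KPC and 38.6 and 13.7 CPM per kilobase in WT, so the WT libraries lay on either side of the KPC libraries. Per kilobase, Aldh1a2 led and Aldh1a3 exceeded Aldh1a1 in both KPC libraries and in WT replicate 2, whereas Aldh1a1 led and Aldh1a3 was last in WT replicate 1. Reads covered up to 4301 bases of the Aldh1a2 interval (KPC replicate 2) where GENCODE M21 annotates 2263 exon bases, so its level per kilobase may be overstated.

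**Figure D3:**
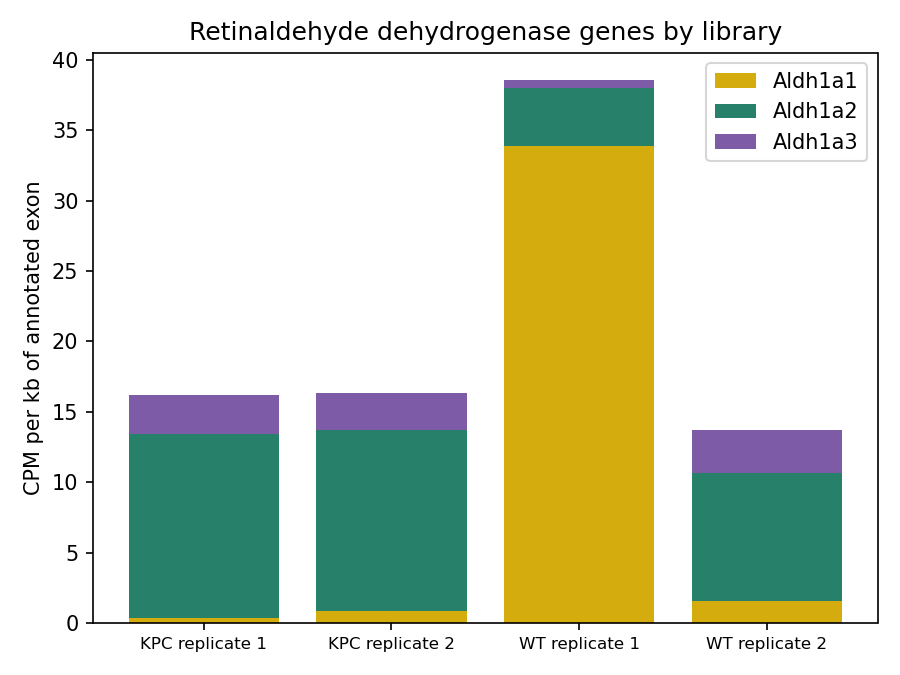
Stacked bars of Aldh1a1, Aldh1a2 and Aldh1a3 levels in CPM per kilobase of annotated exon, KPC libraries left of WT libraries. Aldh1a2 fills most of the bar in both KPC libraries (80.9% and 79.1%) and in WT replicate 2 (66.8%), and Aldh1a1 fills 87.9% of the bar in WT replicate 1.

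Rarb, the gene of the retinoic acid receptor whose promoter is printed above (chromosome 14, 16430843 to 16575472, minus strand), had the most counts of the 9 genes. Its row stood at 157 and 183 CPM in KPC and 188 and 186 CPM in WT. KPC replicate 2 and the WT libraries were within counting error of each other, with Poisson intervals of 180 to 187 CPM in KPC replicate 2, 185 to 192 CPM in WT replicate 1 and 181 to 192 CPM in WT replicate 2. The log2 fold change was -0.14 ± 0.17 (SE; edgeR adjusted p = 0.862), and leaving out 1 library gave -0.26 to -0.02.

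This row may hold reads of a second gene. In GENCODE M21 the last exon of Top2b, a DNA topoisomerase gene on the opposite strand, runs through the first 4620 bases of the deposited Rarb interval and shares 1789 of the 4358 annotated Rarb exon bases there, whereas the deposited Top2b row ends before that interval begins. The Rarb row held 4.42 and 4.20 times the count of the Top2b row in KPC and 3.18 and 4.79 times in WT. Reads piled up at 1.87 and 2.28 per covered base in KPC and 3.22 and 1.35 in WT, against 0.326 and 0.456 in KPC and 0.421 and 0.198 in WT in the Top2b row. Without strand, reads of the Rarb and Top2b ends in this stretch cannot be told apart. The number of covered bases differed between the groups: 4934 and 5456 bases in KPC and 3077 and 3094 bases in WT. In KPC at least 314 and 836 covered bases must lie outside the Top2b exon, while in WT all covered bases could lie within it. Covered bases were also higher in KPC in the row of Mbp, at 5400 and 4940 in KPC and 2924 and 2388 in WT. This did not hold in every row: Acta2 had 6890 and 7002 in KPC and 8194 and 4354 in WT. The libraries differ in depth, and its part in covered bases was not tested. No test was made of covered bases.

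**Figure D4:**
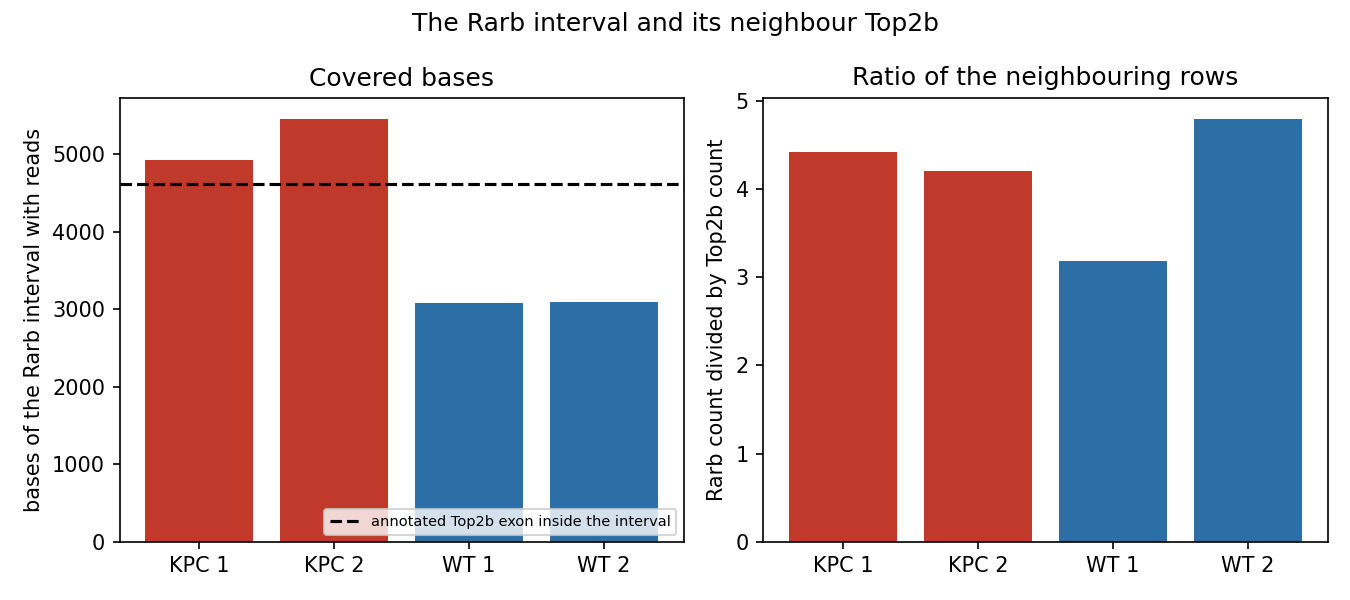
Left, bases of the deposited Rarb interval with at least 1 read, with a dashed line at the 4620 bases that the annotated Top2b exon takes up; right, the Rarb count divided by the Top2b count, KPC libraries left of WT libraries. Both KPC bars (4934 and 5456 bases) pass the line and both WT bars (3077 and 3094 bases) stay under it, while the ratio lies between 3.18 and 4.79 in all 4 libraries.

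Of the other genes of the pathway, 54 of 57 listed had a row and 46 were tested. edgeR called 0 of the 46 at an adjusted p of 0.05, with 5 higher and 1 lower in KPC at an unadjusted p under 0.05, beside 4.73% and 3.94% of all rows. DESeq2 called 1 of them, Dhrs9, which was higher in KPC, beside 1.44% of all rows higher and 1.28% lower. The groups did not overlap in 9 genes higher and 7 lower in KPC, which is 16 of 46 beside 20.6% and 20.5% of all rows, and the median log2 fold change was 0.07.

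In uptake and storage, 12 genes were tested, with 2 above and 3 below both WT libraries in both KPC libraries, beside 20.6% and 20.5% of all rows. The carotenoid oxygenase gene Bco2 had the smallest p, at 0.425 and 0.354 CPM in KPC and 0.0951 and 0.134 CPM in WT (log2 fold change 1.83 ± 0.48 SE, edgeR adjusted p = 0.459). The scavenger receptor gene Scarb1 stood at 17.3 and 16.4 CPM in KPC and 24.6 and 19.7 CPM in WT, and the retinol-binding protein gene Rbp7 at 0.221 and 0.251 CPM in KPC and 0.361 and 0.492 CPM in WT. Cd36, a fatty acid translocase gene also expressed by macrophages, overlapped at 7.48 and 26.7 CPM in KPC and 0.970 and 7.51 CPM in WT.

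Among the retinol and retinal oxidoreductases, 4 of 14 tested genes were above and 2 below both WT libraries in both KPC libraries, where the shares of all rows were 20.6% and 20.5%. Dhrs3, whose enzyme returns retinaldehyde to retinol and whose gene retinoic acid induces, stood at 80.0 and 100 CPM in KPC and 16.4 and 49.7 CPM in WT. Its log2 fold change was 1.45 ± 0.55 (SE, edgeR adjusted p = 0.575), and without WT replicate 2 it was 2.46. Dhrs9, a retinol dehydrogenase gene, stood at 1.97 and 1.22 CPM in KPC and 0.152 and 0.403 CPM in WT (log2 fold change 2.65 ± 0.59 SE, edgeR adjusted p = 0.396, DESeq2 adjusted p = 0.0357). Rdh5, another retinol dehydrogenase gene, lay below both WT libraries in both KPC libraries, at 18.7 and 19.3 CPM in KPC and 24.7 and 28.4 CPM in WT, and Rdh11 stood at 19.6 and 18.1 CPM in KPC and 14.2 and 13.9 CPM in WT.

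The genes that break retinoic acid down were low or carried by 1 library. Cyp26a1, whose promoter is printed above and whose transcript retinoic acid induces strongly in many cells, had 4 and 3 counts in KPC and 1 and 0 counts in WT. The 0 in WT replicate 2 allows up to 0.134 CPM (3 counts), above the 0.068 and 0.0442 CPM of the KPC libraries, so no difference was detectable at this depth. Cyp26b1, the form typical of mesenchyme, stood at 3.18 and 5.20 CPM in KPC and 18.5 and 2.33 CPM in WT, with WT replicate 1 apart from the rest. Its log2 fold change was -1.33 ± 0.95 (SE; edgeR adjusted p = 0.731).

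Of 7 tested receptors and partner genes, 2 were above (20.6% of all rows) and 1 below (20.5% of all rows) both WT libraries in both KPC libraries. Rara, the widely expressed retinoic acid receptor gene, stood at 11.0 and 12.1 CPM in KPC and 15.0 and 15.7 CPM in WT (log2 fold change -0.40 ± 0.18 SE, edgeR adjusted p = 0.618). Rarg stood at 26.3 and 24.3 CPM in KPC and 24.6 and 17.1 CPM in WT, and the shared partner receptor gene Rxra at 15.2 and 20.9 CPM in KPC and 28.3 and 18.5 CPM in WT. Ppard, a nuclear receptor gene, stood at 27.6 and 20.1 CPM in KPC and 13.9 and 14.2 CPM in WT (log2 fold change 0.76 ± 0.22 SE, edgeR adjusted p = 0.514). Fabp5, whose product can carry retinoic acid to that receptor, stood at 89.3 and 118 CPM in KPC and 34.9 and 86.1 CPM in WT.

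Genes listed as retinoic acid targets were divided, with 7 of 15 tested genes at a positive and 8 at a negative log2 fold change and a median of 0.00. Dhrs3, given above, and the nuclear corepressor gene Nrip1, at 21 and 12 CPM in KPC and 6.43 and 10.1 CPM in WT, were above both WT libraries in both KPC libraries. Hoxb4 stood below, at 5.54 and 6.68 CPM in KPC and 9.85 and 8.01 CPM in WT. These 2 above and 1 below, of 15 tested, compare with 20.6% and 20.5% of all rows, so neither count exceeded the share of all rows. Rarres1, named as a retinoic acid receptor responder, stood at 0.612 and 0.531 CPM in KPC and 12.4 and 0.358 CPM in WT, again with WT replicate 1 alone high.

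**Figure D5:**
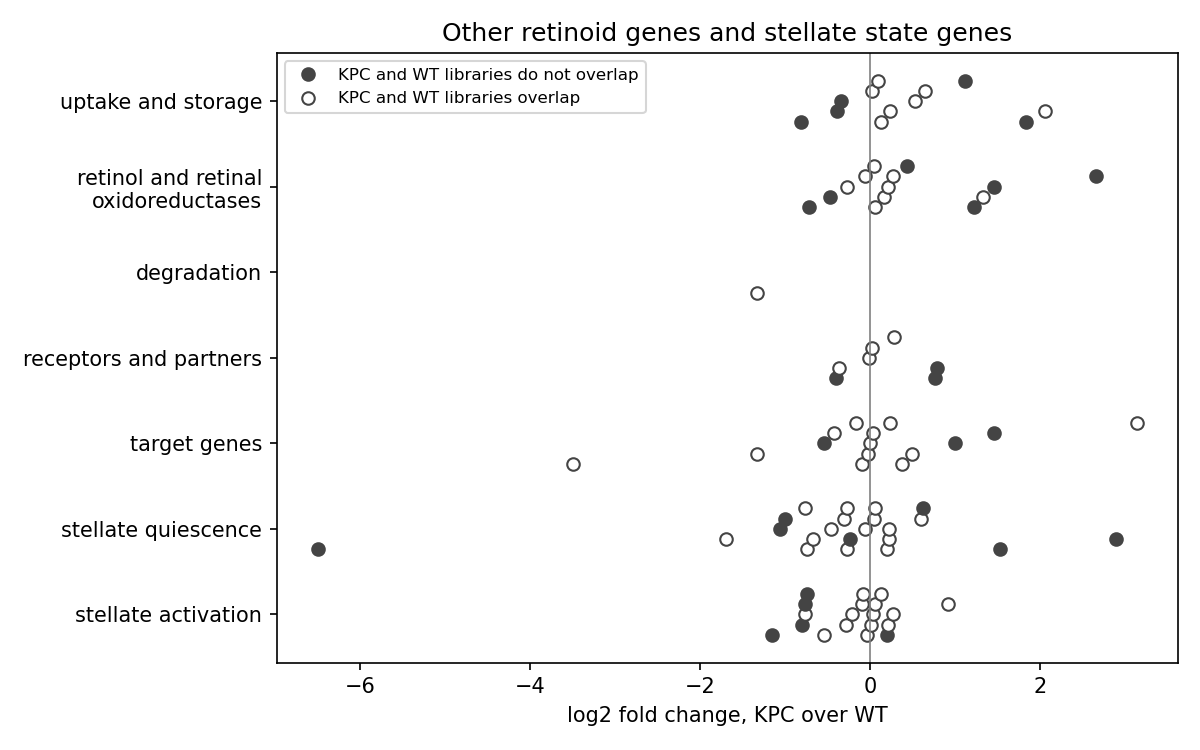
Log2 fold change of KPC over WT for each tested gene of the other retinoid lists and the stellate state lists, 1 point a gene, filled where the KPC and WT libraries do not overlap. Points lie on both sides of 0 in every list with more than 1 tested gene, and the farthest filled point to the left, in the stellate quiescence list, is Ngfr at -6.50.

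Genes associated with stellate cell quiescence and lipid storage were likewise divided. Of 22 tested, edgeR called 0 over all genes, 3 were above and 4 below both WT libraries in both KPC libraries (20.6% and 20.5% of all rows), and the median log2 fold change was -0.26. Neither count exceeded the share of all rows. Ngfr, a neurotrophin receptor gene of stellate and neural cells, stood at 0.119 and 0.0737 CPM in KPC and 15.1 and 2.01 CPM in WT (log2 fold change -6.50 ± 1.23 SE, edgeR adjusted p = 0.338, DESeq2 adjusted p = 1.74e-08). Nes, an intermediate filament gene of progenitor and stellate cells, stood at 54.7 and 104 CPM in KPC and 151 and 182 CPM in WT, and Hgf, the hepatocyte growth factor gene, at 0.867 and 1.64 CPM in KPC and 2.93 and 2.06 CPM in WT. Cebpa, an adipogenic transcription factor gene, stood at 8.62 and 18.6 CPM in KPC and 2.91 and 6.66 CPM in WT. The stellate filament gene Des, also listed as a pericyte and smooth muscle gene, stood at 1507 and 620 CPM in KPC and 5.33 and 281 CPM in WT. Of 10 tested pericyte and smooth muscle genes, 3 were above and 2 below both WT libraries in both KPC libraries (20.6% and 20.5% of all rows). Gfap, a filament gene of quiescent stellate cells, stood at 0.204 and 0.383 CPM in KPC and 0.438 and 0.268 CPM in WT. Pparg, the adipogenic nuclear receptor gene, overlapped at 4.30 and 1.87 CPM in KPC and 7.11 and 2.64 CPM in WT, while the lipid droplet coat gene Plin2 stood at 121 and 107 CPM in KPC and 46.9 and 101 CPM in WT.

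Of 19 tested activation genes, edgeR called 0, 1 was above and 4 below both WT libraries in both KPC libraries (20.6% and 20.5% of all rows), and the median log2 fold change was -0.09. The smooth muscle actin gene Acta2 stood at 4109 and 4214 CPM in KPC and 3034 and 5253 CPM in WT, so myofibroblast actin was abundant in all 4 libraries. Lox, a collagen crosslinking enzyme gene, had the smallest p of the list, at 356 and 508 CPM in KPC and 751 and 1177 CPM in WT (log2 fold change -1.16 ± 0.31 SE, edgeR adjusted p = 0.479). The filament gene Vim and the growth factor receptor gene Pdgfrb were also below both WT libraries, Vim at 1731 and 1698 CPM in KPC and 3695 and 2157 CPM in WT and Pdgfrb at 69.1 and 118 CPM in KPC and 194 and 132 CPM in WT. The collagen gene Col3a1 overlapped, at 855 and 1806 CPM in KPC and 560 and 861 CPM in WT.

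Markers of other cells differed between the same libraries. The mesothelial list summed to 382 and 218 CPM in KPC and 238 and 164 CPM in WT, with 6 of 13 tested members above and 1 below both WT libraries in both KPC libraries (20.6% and 20.5% of all rows). The 1 below was Cav1, which alone gave 69.3 and 38.8 CPM in KPC and 193 and 92.5 CPM in WT. Among the 6 above, Msln stood at 76.7 and 17.2 CPM in KPC and 0.837 and 8.72 CPM in WT. Wt1, also among them, stood at 13.2 and 10.1 CPM in KPC and 1.01 and 7.25 CPM in WT. The groups overlapped in the other 6 tested members, and 4 of the 13 had a negative log2 fold change. Among these, Upk1b stood at 17.3 and 2.67 CPM in KPC and 16.4 and 8.5 CPM in WT. Gpm6a stood at 0.255 and 0.413 CPM in KPC and 9.93 and 0.313 CPM in WT. The epithelial list summed to 1227 and 498 CPM in KPC and 45.9 and 463 CPM in WT, with 2 of 18 markers at 0 counts in WT replicate 1, and the macrophage list to 1329 and 2649 CPM in KPC and 105 and 333 CPM in WT, with 17 of 17 tested members above both WT libraries in both KPC libraries (20.6% of all rows). The endothelial list summed to 46.2 and 100 CPM in KPC and 1028 and 166 CPM in WT, with 12 of 14 tested members below both WT libraries in both KPC libraries (20.5% of all rows), and WT replicate 1, the library of high Aldh1a1, Cyp26b1 and Rarres1, was the one of high endothelial markers. The endocrine list summed to 5.42 and 5.66 CPM in KPC and 8.20 and 1022 CPM in WT, and the adipocyte list, of interest for Rbp4, to 54.9 and 124 CPM in KPC and 66.3 and 88.0 CPM in WT. Its members ranged widely. Lpl stood at 20.7 and 68.4 CPM in KPC and 13.5 and 48.4 CPM in WT. Fabp4 stood at 8.74 and 13.6 CPM in KPC and 24.5 and 12.8 CPM in WT. Adipoq was at no more than 0.0761 CPM and Cfd at 0 counts in all 4 libraries. The part of these cells in the retinoid results was not tested, and in these bulk libraries fewer cells of a type and less RNA per cell cannot be told apart.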

How the data were processed

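Polyadenylated RNA of 2 KPC and 2 WT fibroblast samples was read from one end, per the labels' protocols. FastQC 0.10.1, TopHat2 2.0.3, SAMtools 0.1.18, bedtools and build mm10 (GRCm38) are listed in the submitters' processing notes, which assign no roles. The authors deposited, for each sample, the count of reads per gene interval with no normalization, as the whole-number values show; the intervals span introns. The deposited fraction and number of bases covered were used to describe intervals.

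The members and gene lists were chosen with earlier results of these data known. All rows were fitted together in edgeR 4.0.16 under R 4.3.3, with filterByExpr at a minimum count of 10, TMM factors of 0.988 to 1.02 and a quasi-likelihood test (two-sided) for KPC over WT. The SE was taken from the unshrunk estimate and its F statistic. A permutation test of 2 against 2 libraries cannot reach 0.05. Libraries of a group differed beyond sampling noise (chi-square over its degrees of freedom 80.8 in KPC, 155 in WT). Levels between genes use GENCODE M21 exon bases. All 9 members are named. Of the other pathway and stellate lists, up to 4 genes of smallest p are named, plus partner, feedback and stellate state genes listed with the design, 1 of which is not reported here. The scripts had been tried on simulated data first. Alternatives were other scaling factors and filters, DESeq2 1.42.0, voom in limma 3.58.1, a replicate block, summed rows per symbol, a looser threshold and each library left out, where a lone library is assumed to vary like the other group. Poisson intervals are exact at 95% and, like the floor of 3 counts, cover counting error only. Plots used matplotlib 3.10.9.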

Additional observations from a re-analysis of the deposited data

How the results depend on the processing

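With all 4 libraries edgeR called 0 rows, 0 of the 8 tested retinoid genes, 0 of 46 other pathway genes and 0 of 41 stellate state genes. The same counts were 627, 1, 1 and 1 with DESeq2. Leaving out 1 library gave 0 to 835 calls over all rows (835 without WT replicate 2, 5 without WT replicate 1), 0 to 4 among the retinoid genes, 0 to 3 among the other pathway genes and 0 to 4 among the stellate genes, the highest each time without WT replicate 2. Those 4 retinoid genes were Stra6, Aldh1a1, Aldh1a2 and Aldh1a3, at log2 fold changes of 3.11, -5.86, 1.66 and 2.27; DESeq2 called Stra6 at 2.37. Without 1 library the ranges were 1.77 to 3.11 for Stra6, -5.86 to -1.41 for Aldh1a1, 0.51 to 1.66 for Aldh1a2, -0.16 to 2.27 for Aldh1a3, -0.61 to 1.48 for Crabp1, 1.00 to 4.17 for Crabp2 and 1.29 to 5.50 for Rbp4. The sign turned in 3 refits, for Crabp1 (-0.61 without KPC replicate 2, -0.19 without WT replicate 1) and Aldh1a3 (-0.16 without WT replicate 1); the cause was not tested. RLE, upper quartile or no composition factors, both other filters, voom, summed rows and a threshold of 0.10 called 0 of the retinoid genes. Replicate numbers shared by KPC and WT libraries are not said to pair them, and their deviations correlated at 0.136; with the replicate block edgeR also called 0 rows, and the log2 fold changes were 2.44 for Stra6 and -3.77 for Aldh1a1. Depth limits Lrat and Cyp26a1, with at most 6 and 4 counts in a library.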

Other observations

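Other genes of the retinoid lists were also lowest in WT replicate 1. Rdh10, which encodes the retinol dehydrogenase that feeds retinoic acid synthesis, stood at 43.5 and 22.5 CPM in KPC and 6.33 and 22.1 CPM in WT. Tgm2, a transglutaminase gene that retinoic acid induces, stood at 285 and 216 CPM in KPC and 67.5 and 288 CPM in WT. Its log2 fold change of 0.49 ± 0.68 (SE, edgeR adjusted p = 0.885) was 1.89 without WT replicate 2. Both genes were chosen after their values were seen. Over the 46 tested genes of these lists, WT replicate 1 was the lowest library in 19 and the highest in 9, which is 60.9% at either end, beside 59.8% of all tested rows.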
